A study of Mus musculus with 26 samples.

Results

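The striated muscle myosin heavy chains are the motor proteins of the thick filament in skeletal and cardiac muscle. They were taken here as 9 genes chosen by name, Myh1, Myh2, Myh3, Myh4, Myh6, Myh7, Myh7b, Myh8 and Myh13, out of 55341 genes counted by RNA-Seq in 26 libraries. All libraries came from C2C12, a line of mouse myoblasts that stops dividing and fuses into myotubes in differentiation medium, and were harvested at 0 h (confluent cells) or 24 h of differentiation. In 18 libraries, C2C12 cells had been transfected with a control siRNA (siCtrl) or with siSMYD3#1 or siSMYD3#2, each directed against the methyltransferase gene Smyd3. The siRNAs were given first to proliferating myoblasts and again a day later, when differentiation was started. There were 3 libraries for each siRNA and time point, of which 1 was extracted with TRIzol and 2 with NucleoSpin columns. The other 8 libraries, all TRIzol extractions with 2 per condition, came from C2C12 cells carrying the empty retroviral vector pREV (vector) and from CL5, a single clone that carries HA-FLAG-tagged SMYD3 in the same vector (pREV-SMYD3). The TRIzol and NucleoSpin siRNA libraries were also grown at different passages, so extraction and passage cannot be told apart, and a difference between CL5 and vector cannot be told apart from a property of that clone.

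Each myosin heavy chain has an ATP-hydrolysing head that pulls on actin and a long coiled-coil tail that packs into the thick filament. The isoforms differ mainly in how fast the head works, and each muscle fibre is known by the isoform it makes. Myh3 encodes the embryonic and Myh8 the neonatal (perinatal) chain, which appear first in developing and regenerating muscle. Myh2, Myh1 and Myh4 encode the fast adult chains IIa, IIx and IIb, Myh7 the slow chain of type I fibres and of the heart, Myh6 the alpha chain of the heart, Myh13 the chain of extraocular and laryngeal muscle, and Myh7b an ancient slow-type chain. In cultured myoblasts the chains are markers of terminal differentiation.

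The 9 genes lie at 3 places in the mouse genome (GRCm38, GENCODE M21). Embryonic, fast and neonatal chains form a cluster of 6 genes on the plus strand of chromosome 11, which spans 293.3 kb and runs in the order Myh3 (chr11:67078300-67102291), Myh2 (chr11:67171027-67197517), Myh1 (chr11:67200052-67224575), Myh4 (chr11:67238029-67260446), Myh8 (chr11:67277124-67308634) and Myh13 (chr11:67321658-67371586). Myh6 (chr14:54941921-54966927) and Myh7 (chr14:54970684-54994626) are neighbours on the minus strand of chromosome 14, 3756 bases apart, and Myh7b (chr2:155611212-155634307, plus strand) stands alone. Exons of Myh7 overlap opposite-strand genes, among them the long non-coding RNA Mhrt, over 1149 of 8616 exon bases. The overlaps of Myh1 (515 bases), Myh2 (237), Myh6 (114) and Myh7b (37) are smaller, and Myh3, Myh4, Myh8 and Myh13 have none. The libraries were made with a kit that keeps the strand, but the strand setting of the counting is not given in the sources used here, so reads of the overlapped exon parts could not be assigned to a strand with certainty.

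Except for Myh7b, the chains share stretches long enough for a read of 75 bases to fit more than 1 of them, which bears on their low values below. In GENCODE M21, coding sequence identity with Myh3 was 81.6% for Myh2, 81.1% for Myh8, 80.8% for Myh4, 80.6% for Myh1, 77.8% for Myh13, 77.2% for Myh6, 77.2% for Myh7 and 70.3% for Myh7b. The following stretch of 120 coding bases in the tail region shows where the identity concentrates. It begins at a qPCR primer with which the study measured Myh3, and capitals mark bases that differ from Myh3.
Myh3 (exons between chr11:67099985-67100900): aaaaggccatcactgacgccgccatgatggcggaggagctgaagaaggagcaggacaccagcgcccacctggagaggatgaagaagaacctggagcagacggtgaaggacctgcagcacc
Myh13 (exons between chr11:67367262-67367659): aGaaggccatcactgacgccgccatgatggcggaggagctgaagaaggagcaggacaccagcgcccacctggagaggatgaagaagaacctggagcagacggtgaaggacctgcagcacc
Myh1 (exons between chr11:67221409-67221615): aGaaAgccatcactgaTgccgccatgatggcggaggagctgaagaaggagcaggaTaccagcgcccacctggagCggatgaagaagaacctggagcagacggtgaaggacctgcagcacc
Myh7 (exons between chr14:54972861-54973087): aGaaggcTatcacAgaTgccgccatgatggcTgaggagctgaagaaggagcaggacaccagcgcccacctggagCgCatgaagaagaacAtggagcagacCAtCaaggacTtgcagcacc
Myh7b (exons between chr2:155632736-155632950): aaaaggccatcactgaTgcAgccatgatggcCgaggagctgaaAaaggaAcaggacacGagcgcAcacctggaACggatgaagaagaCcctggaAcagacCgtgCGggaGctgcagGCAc
Myh13 differed from Myh3 at 1 of the 120 bases, Myh1 at 5, Myh7 at 12 and Myh7b at 18. Between these lay Myh4 with 6 differences, Myh8 with 7, Myh2 with 9 and Myh6 with 12.

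Shared sequence was limited to such stretches. Of all windows of 75 bases in the longest coding transcript of a gene, 1.86% in Myh3 also occurred in another gene, against 16.6% in Myh1, 16.3% in Myh2, 12.9% in Myh8, 9.68% in Myh4 and 5.13% in Myh13, all of them shared within the chromosome 11 cluster. Myh6 and Myh7 shared 15.5% of their windows with each other and with no other gene, and Myh7b shared 0. How reads that map to several genes were treated is not given in the sources used here. The shares of the cluster genes cover windows found in any other member, and windows shared with Myh3 were not counted separately. Those of Myh3 occurred in Myh1, Myh2, Myh8 and Myh13, and not in Myh4. Counts of a weakly expressed cluster member beside the members it shares windows with, and of Myh6 beside Myh7, are therefore uncertain. Both of the study's Myh3 primers, shown because their targets set what the qPCR reads, lie in coding exons and matched Myh3 among the GENCODE transcripts of the 9 genes and no other.
Myh3 primer, sense: aaaaggccatcactgacgc
Myh3 primer, antisense: cagctctctgatccgtgtctc

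Between 14315193 and 60398170 counts per library stood behind the siRNA values, and between 21124675 and 67853386 behind those of vector and CL5. Levels are given as CPM, counts scaled to the size of the library, after TMM scaling of the library sizes, done separately for the siRNA libraries and for the vector and CL5 libraries, and levels of different genes are compared only as CPM per kilobase of exon. Tests are edgeR quasi-likelihood tests over all genes that passed a filter on low counts, 15820 genes in the siRNA libraries and 17835 in the others. An adjusted p under 0.01 counts as past the threshold, and differences are on the log2 scale with their standard error (SE). The study's methods call the libraries of a condition biological replicates, while the labels do not tie them to separate cultures, and the p-values measure the spread between these libraries. The targeted gene was measured first. Smyd3 stood at 19.5 ± 1.48 CPM (SD, n = 3) in siCtrl at 24 h, at 6.82 ± 2.44 CPM with siSMYD3#2 and at 16.5 ± 2.40 CPM in the libraries labelled siSMYD3#1. The difference from siCtrl was -1.51 with siSMYD3#2 (edgeR adjusted p = 5.06e-05) and -0.24 in those labelled siSMYD3#1 (edgeR adjusted p = 0.414). The counts of Smyd3 in these libraries thus do not bear out the label of the latter. Separately, the study measured SMYD3 protein by western blot and Smyd3 RNA by qPCR after Smyd3 siRNA. Those measurements are not part of these counts. In the libraries labelled CL5 mouse Smyd3 was at 22.6 ± 2.35 CPM at 24 h against 17.7 ± 0.81 CPM in vector (SD, n = 2 each; edgeR adjusted p = 0.671), a count that need not read the tagged transgene.

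Myh3 was by far the most abundant heavy chain. Over the 26 libraries it ranged from 2 to 8832 counts with a median of 188, and it was the only member with counts in all 26. Myh1 reached 525 counts (median 11), Myh7 379 (median 3.5) and Myh7b 60 (median 7.5). The remaining chains stayed low throughout. Myh6 had at most 56 counts, Myh4 at most 49, Myh2 at most 18, Myh13 at most 11 and Myh8 at most 5, and 18 of the 26 libraries had no count of Myh8 and 16 none of Myh4. In the siRNA libraries the filter on low counts left 4 of the 9 members to be tested (Myh1, Myh3, Myh7 and Myh7b), and in the vector and CL5 libraries 7 of 9 (all but Myh8 and Myh13). A member that passes this filter through its high condition alone has to differ, so counts over the tested members are descriptions.

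**Figure D1:**
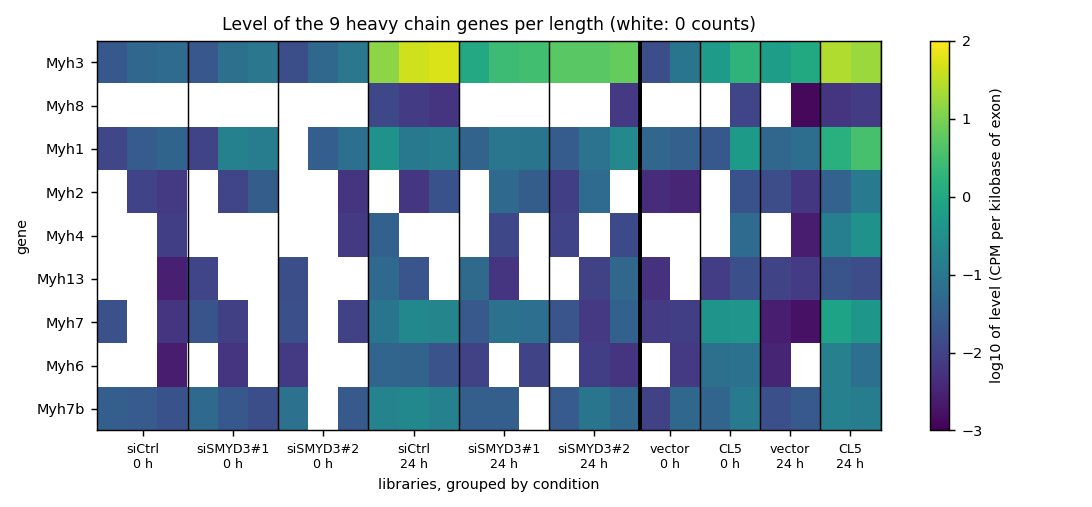
Level of each of the 9 heavy chain genes (rows) in each of the 26 libraries (columns, grouped by condition), as log10 of CPM per kilobase of exon, with white for 0 counts. The thick line separates the siRNA libraries from the vector and CL5 libraries, which were scaled separately. The row of Myh3 is the brightest, and the rows of Myh1 and Myh7 brighten in CL5.

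In cells treated with siCtrl, 24 h of differentiation switched on Myh3 from near the detection limit. At 0 h the TRIzol library had 4 counts of Myh3 (0.147 CPM) and the NucleoSpin libraries 8 (0.293 CPM) and 20 (0.343 CPM). At 24 h the TRIzol library had 2366 counts (83.2 CPM) and the NucleoSpin libraries 6145 (269 CPM) and 4756 (310 CPM). The conditions did not come near to overlapping, and at both time points the TRIzol library was the lowest of the 3. The rise was 9.57 on the log2 scale (SE 0.53, edgeR adjusted p = 2.29e-08).

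Slow and slow-type chains rose with Myh3 at levels that were a small part of it. Myh7, the slow chain, had 4 counts in the TRIzol and 0 and 3 in the NucleoSpin libraries of siCtrl at 0 h, and 22, 43 and 25 at 24 h. It rose by 4.39 (SE 0.77, edgeR adjusted p = 0.000166). Myh7b had 6, 5 and 7 counts at 0 h and 32, 32 and 16 at 24 h, a rise of 2.82 (SE 0.65, edgeR adjusted p = 0.00188). This call was lost in a fit without extraction as a covariate (2.78, edgeR adjusted p = 0.0386) and when a library was left out (edgeR adjusted p = 0.0111 without the TRIzol library at 0 h, 0.0143 without the deeper NucleoSpin library at 0 h and 0.0129 without the deeper NucleoSpin library at 24 h).

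Myh1, the fast IIx chain, did not pass under edgeR. Its counts were 2 (TRIzol), 5 and 15 at 0 h and 64 (TRIzol), 15 and 12 at 24 h, or 0.0736, 0.183 and 0.257 CPM against 2.25, 0.657 and 0.783 CPM, a difference of 2.77 (SE 0.90, edgeR adjusted p = 0.0214). DESeq2 called it (2.99, DESeq2 adjusted p = 0.00297), as did edgeR without the filter on low counts (2.75). The value at 24 h rested on the TRIzol library, the one with the least Myh3. In a fit with a separate effect for each extraction, chosen after the data were seen, the difference was 4.85 between the TRIzol libraries, a single library at each time point and so given without a test, and 1.62 between the NucleoSpin libraries (edgeR adjusted p = 0.0177). In all, 3 of the 4 tested members rose in siCtrl, where 14.6% of all genes tested rose. Each of the 4 had its 24 h libraries above all of its 0 h libraries, as had 17% of all genes tested. A member that passed the filter on low counts through siCtrl at 24 h was bound to lie this way, so these counts are descriptions.

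The chains below the filter moved by few counts. Myh6, the alpha chain of the heart, went from 0, 0 and 1 to 8, 6 and 2 counts in siCtrl, a ratio of 27.1 over the pooled libraries with a 95% exact counting interval of 4.21 to 1137. Such intervals cover counting error only and take no account of PCR copies or of the spread between libraries. Myh8, the neonatal chain, had no count at 0 h and 4, 2 and 1 at 24 h, a rise of at least 3.95-fold, with 3 counts in all taken as the limit for 0. Myh13 went from 1 count in all to 9, 3 and 0. For Myh2, with 5 counts in all at 0 h and 3 at 24 h, and for Myh4, with 3 and 6, no difference was detectable at this depth.

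With either Smyd3 siRNA, less Myh3 was present at 24 h. The libraries labelled siSMYD3#1 had 6.22 CPM (TRIzol), 16.3 and 18.2 CPM (NucleoSpin), and those of siSMYD3#2 had 39.8 CPM (TRIzol), 31.6 and 31.8 CPM (NucleoSpin). Every one of these 6 values lay below the lowest siCtrl library at 83.2 CPM. The mean was 13.6 ± 6.42 CPM in the libraries labelled siSMYD3#1 and 34.4 ± 4.65 CPM for siSMYD3#2 against 221 ± 121 CPM in siCtrl (SD, n = 3 each). On the log2 scale the difference from siCtrl was -4.0 (SE 0.36, edgeR adjusted p = 1.17e-05) for the libraries labelled siSMYD3#1, whose Smyd3 count was not lowered past the threshold, and -2.41 (SE 0.34, edgeR adjusted p = 0.000806) for siSMYD3#2. The call for siSMYD3#2 was lost in a fit without extraction as a covariate (-2.68, edgeR adjusted p = 0.0196). In bulk RNA, fewer cells that express Myh3 and less Myh3 RNA per cell cannot be told apart.

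**Figure D2:**
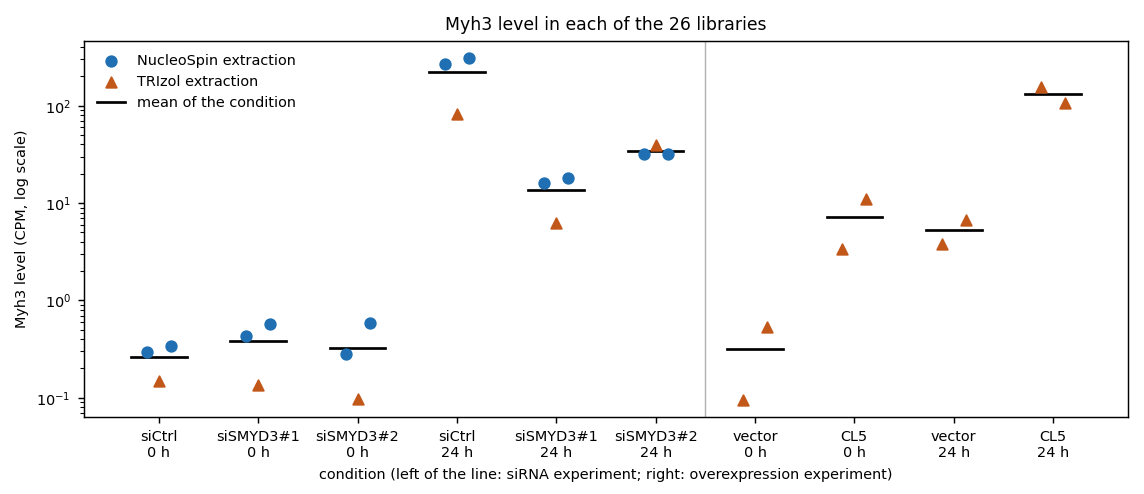
Myh3 level in CPM on a log axis for each of the 26 libraries, by condition, with a marker for the extraction method and a bar for the mean of the condition. Both siRNAs against Smyd3 lie between the 0 h and the 24 h level of siCtrl, and CL5 at 0 h lies at about the level of vector at 24 h (means of 7.17 and 5.29 CPM).

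Myh3 nevertheless rose with time after either siRNA. From 0 h to 24 h it rose by 5.14 (SE 0.56, edgeR adjusted p = 1.46e-05) in the libraries labelled siSMYD3#1 and by 6.98 (SE 0.53, edgeR adjusted p = 1.44e-06) with siSMYD3#2, in each case as the 1 member called of 4 tested, beside 12.7% and 9.11% of all genes tested that rose. At 0 h Myh3 had 4, 11 and 11 counts in the libraries labelled siSMYD3#1 and 2, 13 and 14 with siSMYD3#2, against 4, 8 and 20 in siCtrl. No member passed the threshold at 0 h with either siRNA, where 1.43% and 0.531% of all genes tested did in either direction. At an unadjusted p under 0.05 the members at 0 h were 0 of 4 in both edgeR comparisons, against 2196 and 1596 of all genes, and DESeq2 also called 0 members. The difference between the siRNA effect at 24 h and that at 0 h was -4.43 (SE 1.14, edgeR adjusted p = 0.136) for the libraries labelled siSMYD3#1 and -2.59 (SE 1.03, edgeR adjusted p = 0.397) for siSMYD3#2, neither past the threshold, with few Myh3 counts at 0 h behind both.

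The minor chains also had lower values after either siRNA, without a call under edgeR. Myh7 had 7, 18 and 8 counts in the libraries labelled siSMYD3#1 at 24 h and 8 (TRIzol), 3 and 1 with siSMYD3#2, against 22, 43 and 25 in siCtrl, and the difference was -1.61 (SE 0.62, edgeR adjusted p = 0.109) and -2.81 (SE 0.72, edgeR adjusted p = 0.0198). For Myh7b the counts were 7, 6 and 0 in the libraries labelled siSMYD3#1 and 8 (TRIzol), 3 and 10 with siSMYD3#2, with differences of -2.88 (SE 0.70, edgeR adjusted p = 0.0103) and -1.77 (SE 0.65, edgeR adjusted p = 0.0978). DESeq2 called Myh7b for the libraries labelled siSMYD3#1 (-3.01, DESeq2 adjusted p = 0.00201) and Myh7 for siSMYD3#2 (-3.10, DESeq2 adjusted p = 0.0069), and edgeR on the NucleoSpin libraries alone also called the latter (-3.85, edgeR adjusted p = 0.00163). The groups of Myh7 and of Myh7b did not overlap with siCtrl for either siRNA.

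Myh1 lay at 0.245 (TRIzol), 0.580 and 0.566 CPM in the libraries labelled siSMYD3#1 and at 1.41 (TRIzol), 0.182 and 0.519 CPM with siSMYD3#2. Its differences from siCtrl were -1.52 (SE 0.85, edgeR adjusted p = 0.304) and -0.76 (SE 0.79, edgeR adjusted p = 0.639), and the latter turned to 0.52 without the TRIzol library of siCtrl. The count of members called as lower was thus 1 of 4 for the libraries labelled siSMYD3#1, against 2.94% of all genes tested, and 1 of 4 for siSMYD3#2, against 2.04%. All 4 members of the former comparison lay below siCtrl without overlap, and 3 of 4 of the latter, against 7.38% and 7.82% of all genes tested. These counts are descriptions, since a member that passed the filter on low counts through siCtrl at 24 h was bound to lie this way. Of the chains below the filter, Myh6 had 3 counts in all in the libraries labelled siSMYD3#1 and 2 with siSMYD3#2 against 16 in siCtrl (ratios of 0.168, interval 0.0313 to 0.587, and 0.140, interval 0.0156 to 0.597). Myh2 went the other way, with 13 counts in the libraries labelled siSMYD3#1 and 8 with siSMYD3#2 against 3 in siCtrl (ratios of 3.88, interval 1.07 to 21.2, and 2.99, interval 0.718 to 17.5), while its libraries overlapped.

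The difference of Myh3 between siSMYD3#2 and siCtrl at 24 h was smaller in the TRIzol than in the NucleoSpin libraries. Each condition has a single TRIzol library at 24 h, so the TRIzol values below are descriptions, with an SE taken from the spread of other conditions. In siCtrl at 24 h the TRIzol library had far less Myh3 than the NucleoSpin libraries, and so had that labelled siSMYD3#1, whereas with siSMYD3#2 the TRIzol library was the highest of the 3. In the fit with a separate effect for each extraction, the difference between siSMYD3#2 and siCtrl was -3.19 (SE 0.12) between the NucleoSpin libraries and -1.06 (SE 0.16) between the TRIzol libraries. For the libraries labelled siSMYD3#1 the values were -4.08 (SE 0.13) and -3.74 (SE 0.18). The libraries of the siRNAs differed from each other by -1.58 (SE 0.35, edgeR adjusted p = 0.0128, siSMYD3#1 minus siSMYD3#2) in the joint fit, with 0 of 4 members called beside 3.36% of all genes tested in either direction. In that comparison 1 of 4 members and 3513 genes had an unadjusted p under 0.05, and DESeq2 called 1 member. The same difference was -0.89 (SE 0.12) between the NucleoSpin and -2.68 (SE 0.18) between the TRIzol libraries.

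**Figure D3:**
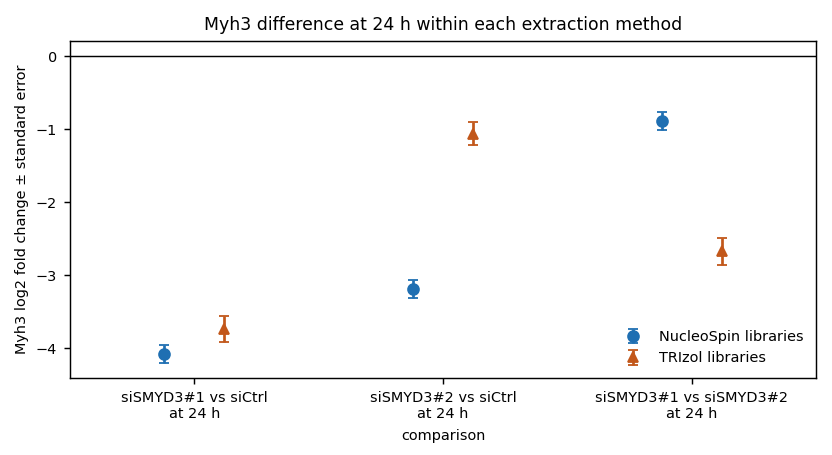
Log2 fold change of Myh3 at 24 h in 3 comparisons, estimated separately for the NucleoSpin and the TRIzol libraries, with bars of 1 standard error, which for the single TRIzol libraries comes from the spread of other conditions. The points of the libraries labelled siSMYD3#1 against siCtrl lie close together (-4.08 and -3.74), and those of siSMYD3#2 against siCtrl lie apart (-3.19 and -1.06).

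CL5 cells expressed the slow chain Myh7, which vector cells almost lacked, and did so before differentiation was started. At 0 h Myh7 had 132 and 136 counts in CL5 (3.33 and 3.48 CPM) and 2 and 3 in vector (0.0627 and 0.0730 CPM). At 24 h it had 379 and 83 counts in CL5 (6.72 and 3.82 CPM) and 1 and 1 in vector (0.0222 and 0.0153 CPM). In each case the CL5 libraries lay far above the vector libraries, and at 0 h the pair of CL5 libraries was nearly equal. Myh7 was higher in CL5 by 5.58 at 0 h (SE 0.51, edgeR adjusted p = 0.00235) and by 7.97 at 24 h (SE 0.58, edgeR adjusted p = 0.00103). With so few vector counts the pooled ratio at 24 h, 326, had a counting interval from 89.9 to 2704, and that at 0 h, 49.7, one from 21.0 to 154. Leaving out either vector library ended the call at both time points (edgeR adjusted p = 0.0182 and 0.0208 at 24 h, 0.0437 and 0.0466 at 0 h), and so did leaving out the first CL5 library at 24 h (edgeR adjusted p = 0.0110). It was the 1 member called of 7 tested at each time point, where 0.376% of all genes tested were called as higher in CL5 at 24 h and 0.465% at 0 h. Myh7 passed the filter on low counts through its CL5 libraries, so this count is a description. The libraries labelled CL5 did not differ from vector past the threshold in the count of mouse Smyd3, so the direction rests on the label.

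Myh3 was also higher in the libraries labelled CL5, short of the threshold. At 0 h it stood at 3.40 and 10.9 CPM in CL5 and 0.0941 and 0.535 CPM in vector, and at 24 h at 157 and 106 CPM in CL5 and 3.83 and 6.75 CPM in vector. The conditions did not overlap at either time point. The differences were 4.43 (SE 0.81, edgeR adjusted p = 0.0311) at 0 h and 4.63 (SE 0.73, edgeR adjusted p = 0.0189) at 24 h, and the change of the difference with time was 0.20 (SE 1.09). Vector libraries at 24 h held 5.29 ± 2.06 CPM of Myh3 (SD, n = 2) where siCtrl held 221 ± 121 CPM (SD, n = 3). The experiments were scaled and cultured separately, and these values are set side by side without a test.

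Fast chains had higher values in CL5 than in vector at 24 h, none past the threshold under edgeR. Myh1, IIx, had 525 and 492 counts (9.31 and 22.6 CPM) against 13 and 26 in vector (0.288 and 0.399 CPM), a difference of 5.51 (SE 1.23, edgeR adjusted p = 0.0611). Myh4, IIb, the fastest of the limb chains, had 49 and 48 counts against 0 and 1, a difference of 6.99 (SE 1.64, edgeR adjusted p = 0.0895) and a pooled ratio of 137 (interval 24.0 to 5469). Myh2, IIa, had 15 and 18 counts against 5 and 3, a difference of 2.74 (SE 1.05, edgeR adjusted p = 0.288). In CPM the second CL5 library, the shallower one, was the higher for all 3 fast chains, while it was the lower for Myh3, Myh6, Myh7 and Myh7b. The neonatal chain Myh8 had 4 and 2 counts in CL5 and 0 and 1 in vector.

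Among the cardiac and slow-type chains in CL5, Myh6 had 56 and 10 counts at 24 h against 1 and 0 in vector (difference 5.94, SE 1.06, edgeR adjusted p = 0.0295, pooled ratio 93.3 with interval 16.2 to 3739). At 0 h it had 19 and 20 counts against 0 and 2 (difference 4.06, SE 1.01, edgeR adjusted p = 0.0773). Myh6 shares 15.5% of its windows with Myh7, and how much of its count comes from Myh7 reads was not tested. Myh7b had 60 and 18 counts in CL5 at 24 h against 5 and 11 (difference 2.72, SE 0.78, edgeR adjusted p = 0.136). At 24 h each of the 7 tested members had both CL5 libraries above both vector libraries, as had 24.8% of all genes tested, and at 0 h 3 of 7 had (Myh3, Myh6 and Myh7), against 21.4%. Myh2, Myh4, Myh6 and Myh7 had at most 5 counts in any vector library and passed the filter on low counts through CL5. They were thus bound to lie this way, and these counts of members are descriptions.

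**Figure D4:**
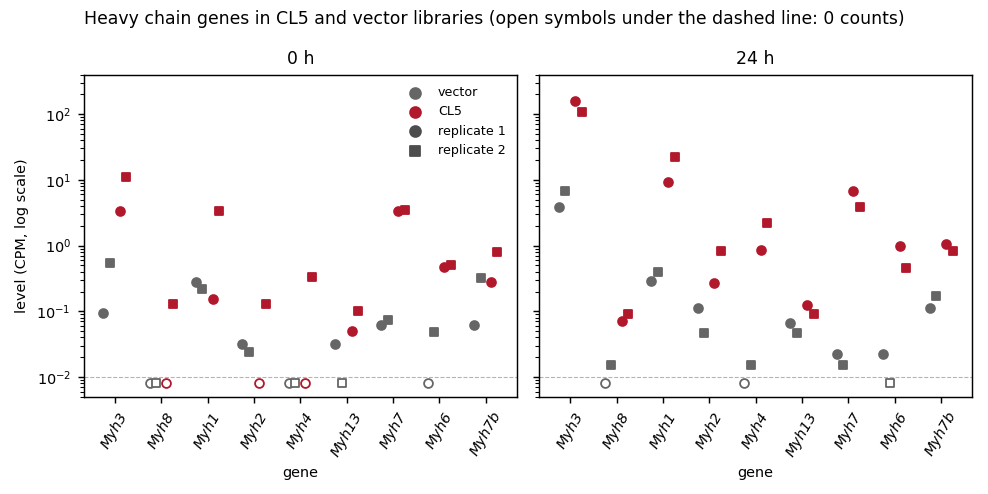
Level in CPM on a log axis of each heavy chain gene in the vector (grey) and CL5 (red) libraries at 0 h (left) and 24 h (right), with a circle and a square for the separate libraries and open symbols under the dashed line for 0 counts. Myh3, Myh6 and Myh7 are separated at both time points, and at 0 h the CL5 libraries differ in Myh1 (0.151 and 3.30 CPM).

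The CL5 libraries at 0 h differed from each other in chains of the chromosome 11 cluster and in Myh7b on chromosome 2. The second had more counts than the first of Myh1 (129 against 6), Myh3 (427 against 135) and Myh4 (13 against 0). The same held for Myh2 (5 against 0), Myh8 (5 against 0), Myh13 (4 against 2) and Myh7b (31 against 11, or 0.794 against 0.277 CPM). Counts of Myh7 (136 against 132) and Myh6 (20 against 19) on chromosome 14 were alike. The difference of Myh1 between CL5 and vector at 0 h was 2.78 (SE 1.20, edgeR adjusted p = 0.277), and it turned to -0.67 without the second CL5 library. For Myh4, with no count in vector at 0 h, the pooled CL5 libraries were at least 4.02-fold higher, a bound that rests on the second library.

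With time, no member passed the threshold in vector or in CL5, and neither did any other gene (0% of those tested in each comparison). In vector, Myh3 went from 3 and 22 counts to 173 and 440, a difference of 3.99 (SE 0.81, edgeR adjusted p = 0.365), and in CL5 from 135 and 427 to 8832 and 2305, a difference of 4.20 (SE 0.72, edgeR adjusted p = 0.314). At an unadjusted p under 0.05 edgeR had 1 of 7 members and 1256 genes in vector and 4 of 7 members and 1137 genes in CL5. DESeq2 called 1 member in each, beside 119 genes in vector and 109 in CL5. The other CL5 chains are given by their pooled ratios, without a test. Fast chains had ratios of 7.59 (Myh1, interval 6.34 to 9.16), 7.52 (Myh4, interval 4.20 to 14.6) and 6.65 (Myh2, interval 2.58 to 21.8) between 24 h and 0 h, against 1.74 (Myh7, interval 1.49 to 2.03), 1.71 (Myh6, interval 1.13 to 2.60) and 1.87 (Myh7b, interval 1.27 to 2.79) for the cardiac, slow and slow-type chains. These intervals do not hold the spread between libraries, which for Myh1 at 0 h was larger than the ratio itself, and with 1 library left out the fitted change of Myh1 in CL5 ranged from 2.24 to 6.67.

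Per kilobase of exon, Myh3 made up nearly all heavy chain transcripts at 24 h. In siCtrl its level was 36.5 ± 19.99 CPM per kb (SD, n = 3), followed by Myh1 at 0.194, Myh7b at 0.179 and Myh7 at 0.166 CPM per kb, means that did not differ beyond their spread, and by Myh6 at 0.0334 and the rest below. The annotated exon bases used here exceed the longest coding transcript most in Myh7 (8616 against 6135) and Myh8 (11772 against 6149). This lowers the levels and shares of these chains beside the others. Its share of the summed level of the 9 members was 97.5 ± 2.33% (SD, n = 3). In the libraries labelled siSMYD3#1 the share was 90.5 ± 3.69%, a difference of -7.03 percentage points (two-sided exact permutation test, p = 0.1, the smallest p that 3 against 3 libraries can give), and with siSMYD3#2 it was 96.1 ± 1.89%, a difference of -1.40 (exact permutation p = 0.4). In CL5 at 24 h the order was Myh3 (21.7 ± 5.91 CPM per kb, SD, n = 2), Myh1 (2.52), Myh7 (0.612), Myh4 (0.256), Myh7b (0.143), Myh6 (0.108) and Myh2 (0.0767). Myh3 held 84.6 ± 8.16% there and 89.1 ± 2.93% in vector (exact permutation p = 0.667, with 0.333 the smallest possible). CL5 at 0 h had 55.5 ± 5.84% Myh3, 24.3 ± 15.5% Myh7 and 9.68 ± 10.6% Myh1 (SD, n = 2). Its separate libraries were far apart for Myh7 (13.4% and 35.3%) and Myh1 (2.18% and 17.2%). In the other 0 h conditions, where all chains had few counts, the mean share of Myh3 was 26.6% to 39.5%. Single libraries there ran from 12.4% to 60.2%, a range that includes both CL5 libraries at 0 h (51.4% and 59.7%).

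**Figure D5:**
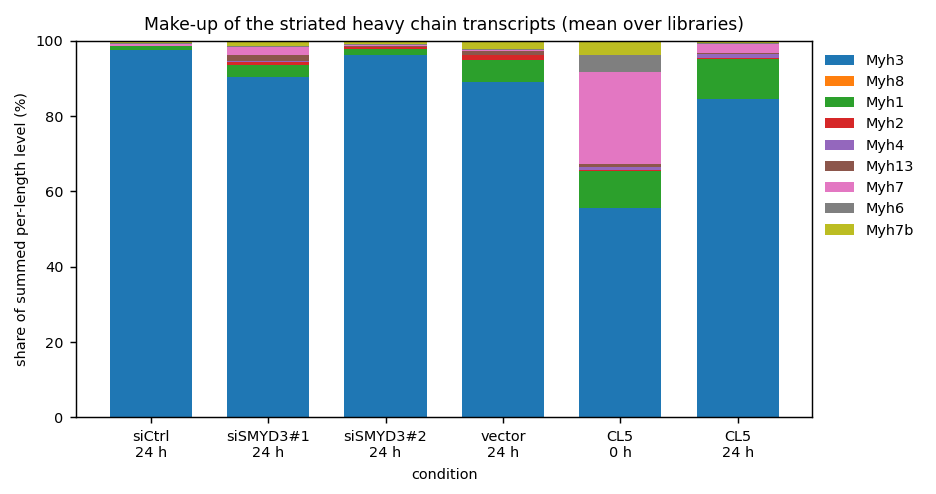
Share of each heavy chain gene, in percent, of the summed CPM per kilobase of the 9 genes, as the mean over the libraries of 6 conditions. Myh3 holds over 84% at 24 h in every condition and 55.5% in CL5 at 0 h, where Myh7 holds 24.3% (13.4% and 35.3% in the separate libraries).

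The striated chains were minor beside the non-muscle heavy chain Myh9, which drives cell shape and division. Summed over the 9 members, their level per kilobase was 0.0304% to 0.105% of that of Myh9 in siCtrl at 0 h and 6.36% to 39.8% at 24 h. At 24 h it was 0.457% to 1.78% in the libraries labelled siSMYD3#1, 2.56% to 3.51% with siSMYD3#2, 0.325% to 0.503% in vector and 14.1% to 15.0% in CL5. Of the 4 other class II heavy chains listed, Myh9 and Myh10 were tested and neither passed in any comparison, and the smooth muscle chain Myh11 had at most 10 counts. Almost no count came from the non-coding genes beside the loci. Mhrt, Mir208a, Mir208b and Mir499, which lie in or beside Myh7, Myh6 and Myh7b, had 0 counts in all 26 libraries. The gene 2310065F04Rik had at most 4, in CL5 libraries. Libraries were made from poly(A) RNA, so the counts of the Mir genes do not measure mature microRNAs. For Mhrt, which overlaps Myh7 exons, the strand setting of the counting is not known.

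Other parts of the thick filament moved with the heavy chains. Of 20 listed thick filament partners, 13 were tested in the siRNA libraries, and 11 rose in siCtrl between 0 h and 24 h (median of the list 4.29, of all genes 0.03). Of all genes tested, 14.6% rose. Mybph, a myosin-binding protein, rose by 8.29 (SE 0.37), Mylpf, the fast regulatory light chain, by 7.08 (SE 0.33), and Myl1, the fast essential light chain, by 6.59 (SE 0.30). At 24 h, 10 of the 13 fell in the libraries labelled siSMYD3#1 (list median -2.20, all genes 0.00), against 2.94% of all genes tested. Among them were Mybph at -3.87 (SE 0.27), Mylpf at -3.53 (SE 0.27) and the M-band gene Myom3 at -2.79 (SE 0.48). With siSMYD3#2, 6 of 13 fell (list median -1.63), against 2.04% of all genes tested. Among them were Mylpf at -2.24 (SE 0.25), the embryonic and atrial light chain Myl4 at -2.10 (SE 0.40) and Mybph at -2.06 (SE 0.24).

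In CL5, 4 of 14 tested partners were higher than in vector at 24 h (list median 3.51, all genes 0.02) and 5 of 14 at 0 h (list median 3.84, all genes -0.03). Of all genes tested, 0.376% and 0.465% were higher. Mybpc1, the slow-type myosin-binding protein C, differed most, by 7.95 (SE 0.80) at 24 h and 8.99 (SE 1.06) at 0 h, and the others called at 24 h included Myom3 (4.76, SE 0.55) and Myom1 (3.18, SE 0.27). Mylpf, with 6.54 (SE 0.79), was among those called at 0 h. Under edgeR, 0 of the 14 partners were called between 0 h and 24 h within CL5 or within vector, as was the case for all genes.

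Genes that fold and turn over myosin were called in part. Of 7 listed, 5 were tested in the siRNA libraries. Over time in siCtrl the list median was 1.67 (all genes 0.03), and 14.6% of all genes tested rose. At 24 h the list medians were -1.64 (labelled siSMYD3#1) and -1.45 (siSMYD3#2), and 2.94% and 2.04% of all genes tested fell. In CL5 they were 3.85 at 24 h and 4.16 at 0 h, where 0.376% and 0.465% of all genes tested were higher. In siCtrl 4 rose with time, among them Unc45b, the chaperone that folds the myosin head, by 7.67 (SE 0.48), and Smyd1, a muscle relative of Smyd3 that acts on thick filament assembly, by 2.67 (SE 0.60), while the chaperone gene Hsp90aa1 fell by 1.02 (SE 0.10). At 24 h 2 of 5 fell with each siRNA, Unc45b (-3.90, SE 0.36, labelled siSMYD3#1, and -2.11, SE 0.32, siSMYD3#2) and Trim54, a ubiquitin ligase of the sarcomere (-1.70, SE 0.21, and -1.45, SE 0.21). In CL5 2 of 6 tested were higher at each time point, Smyd1 (3.64, SE 0.40, at 24 h and 5.04, SE 0.44, at 0 h) and Trim54 (4.51, SE 0.52, and 4.68, SE 0.53).

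Among regulators of isoform choice, Myog had the largest changes past the threshold. Of 19 listed, 18 were tested in the siRNA libraries, and 8 rose and 1 fell in siCtrl with time (list median 0.59, all genes 0.03). Of all genes tested, 14.6% rose, and 4655 of 15820 passed in either direction. At 24 h the list medians were -0.33 (labelled siSMYD3#1) and -0.50 (siSMYD3#2), beside 2.94% and 2.04% of all genes tested that fell. Myog, the myogenic factor of early differentiation, rose by 7.25 (SE 0.38), Ppargc1a, a coactivator known for slow fibres, by 2.04 (SE 0.35), and Mef2a by 1.57 (SE 0.18), and Nfatc1 was the one that fell. At 24 h 4 of 18 fell in the libraries labelled siSMYD3#1, among them Myog (-3.59, SE 0.30), Vgll2 (-1.26, SE 0.21) and Mef2a (-0.98, SE 0.17), and 2 of 18 with siSMYD3#2, Myog (-1.81, SE 0.28) and Mef2a (-0.81, SE 0.17). In CL5 Myog was higher at 0 h (6.86, SE 0.89), the 1 of 17 tested that passed, beside 0.465% of all genes tested that were higher. At 24 h none of the 17 passed, beside 172 of 17835 genes in either direction. Myog then differed by 3.82 (SE 0.73, edgeR adjusted p = 0.0376), Myod1 by 1.48 (SE 0.35, edgeR adjusted p = 0.0776), and Ppargc1a by -1.53 (SE 0.54, edgeR adjusted p = 0.227).

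Across the 26 libraries the genes whose levels were most like that of Myh3, by Pearson's r of log2(CPM + 1) over 15597 genes, were Mybph (r = 0.985), Hfe2 (hemojuvelin, 0.978) and Ckm (muscle creatine kinase, 0.978). In the 13 libraries at 24 h alone the values were 0.983, 0.990 and 0.984. The points share conditions, time and extraction, so these are descriptions. No other member had the 100 counts on average that were set for this measure.

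The windows of 250 bases before the start sites of Myh3 and Myh7 are shown. Under edgeR, Myh3 was the member called between the Smyd3 siRNAs and siCtrl at 24 h, and Myh7 that between CL5 and vector. For both, the annotations place the start at the same base (RefSeq and GENCODE, GRCm38). Capitals mark CANNTG, the letters of an E-box, which myogenic factors such as Myog bind, and TATAAA.
Myh3 (chr11:67078050-67078299, plus strand): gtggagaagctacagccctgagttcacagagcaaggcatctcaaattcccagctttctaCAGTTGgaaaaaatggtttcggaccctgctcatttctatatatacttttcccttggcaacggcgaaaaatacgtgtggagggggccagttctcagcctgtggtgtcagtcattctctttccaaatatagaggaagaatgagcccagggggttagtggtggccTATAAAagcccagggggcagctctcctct
Myh7 (chr14:54994627-54994876, minus strand): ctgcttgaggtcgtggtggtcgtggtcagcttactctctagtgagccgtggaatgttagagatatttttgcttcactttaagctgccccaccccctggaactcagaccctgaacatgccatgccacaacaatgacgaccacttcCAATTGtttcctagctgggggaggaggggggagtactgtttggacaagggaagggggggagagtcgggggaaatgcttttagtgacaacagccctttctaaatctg
In Myh3 the E-box letters stood at positions -191 to -186 and TATAAA at -29 to -24 from the start. Myh7 had the E-box letters at -106 to -101 and no TATAAA in this window. On either strand CANNTG occurred in 66.2% and TATAAA in 12.4% of 32851 RefSeq promoter windows of the same length, so the E-box letters were common. The letters of a MEF2 site, found in 2.92% of windows, were in those of Myh1, Myh4 and Myh8, where they overlap TATAAA, and in none of the other 6 members. These are matches of letters and no evidence of binding.

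Markers showed myoblasts in all libraries, with Des at 67.2 to 1506 CPM and Myod1 at 4.66 to 110 CPM. Cardiac markers were mixed. Tbx5 and Myl7 had at most 1 count, Nppa at most 4 and Ryr2 at most 12, while Gata4 lay at 20.5 to 39.5 CPM and Nkx2-5 at 0.627 to 30.9 CPM. The summed level of the 8 cardiac markers was 36.6 to 45.2 CPM in CL5 and 34.2 to 34.9 CPM in vector at 24 h, and 41.0 to 58.5 CPM against 30.5 to 31.0 CPM at 0 h, while in siCtrl it was 35.6 to 44.2 CPM at 0 h and 30.8 to 33.4 CPM at 24 h. It was thus higher in CL5 than in vector, but lower at 24 h than at 0 h in siCtrl. Gata4 made up a large part of this sum, and the relation of the sum to Myh7 was not tested. Of 5 cardiac markers tested between CL5 and vector at 24 h none passed, beside 172 of 17835 genes in either direction. Gata4 was lower in CL5 than in vector (-0.45, edgeR adjusted p = 0.344), and the others had higher values. These were Nkx2-5 (2.34, edgeR adjusted p = 0.0191), Tnni3 (2.89), Ryr2 (2.79) and Nppb (0.16). At 0 h Nkx2-5 passed as higher in CL5 (2.86, edgeR adjusted p = 0.00964). Tnni3 (3.64) and Ryr2 (3.15) were then higher, and Nppb (-0.94) and Gata4 (-0.21) lower. In siCtrl Tnni3 rose with time (2.09, edgeR adjusted p = 0.0014), while Gata4 fell (-0.38, edgeR adjusted p = 0.00579). Fibroblast markers did not move as a group. The summed level of the 4 (Pdgfra, Dcn, Col1a1 and Thy1, the last with at most 2 counts) was 43.6 to 55.1 CPM in CL5 and 650 to 658 CPM in vector at 24 h, and 678 to 1801 CPM in the libraries labelled siSMYD3#1 against 310 to 369 CPM in siCtrl, but 268 to 343 CPM with siSMYD3#2. In siCtrl it was 154 to 289 CPM at 0 h, and in vector 207 to 418 CPM at 0 h, below the 24 h values of the same cells. Col1a1 was higher in the libraries labelled siSMYD3#1 at 24 h (2.103, edgeR adjusted p = 0.00024), whereas Dcn rose in siCtrl with time (4.83, edgeR adjusted p = 7.80e-11) and was lower with siSMYD3#2 at 24 h (-1.38, edgeR adjusted p = 0.000236). Their part in the heavy chain results was not tested.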

How the data were processed

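RNA-Seq was carried out by the authors on poly(A) RNA with a stranded kit, in 18 siRNA and 8 vector or CL5 libraries. The authors aligned the reads to GRCm38 and deposited 1 count per gene and library, as whole numbers without normalization; FastQC 0.11.5, HISAT2 2.1.0 and featureCounts of Subread 1.6.3 are named in the submitters' processing notes. The strand setting, the treatment of multi-mapped reads and the gene annotation of the counting are not given in the sources used here. Conditions and extraction methods were taken from the sample labels. No pair of libraries held identical counts.

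The tests were run with edgeR 4.0.16 under R 4.3.3 (filterByExpr, TMM, robust quasi-likelihood F test, Benjamini-Hochberg adjustment over all genes tested, threshold 0.01). One fit held the 18 siRNA libraries as 6 groups with extraction as covariate, and another the 8 vector and CL5 libraries as 4 groups. The SE is the log2 fold change divided by the square root of F. Of 55341 gene identifiers, 54495 were given a symbol by GENCODE M21, including all 9 members. CPM per kb uses all annotated exon bases of a gene. Shares were compared by two-sided exact permutation tests. Ratios of pooled counts carry 95% exact intervals. The likeness measure used a pseudocount of 1 CPM. In simulated data 200 genes had a log2 change of 3. The edgeR fit recovered 200 in the siRNA design (siCtrl, 24 h against 0 h, 1 wrong call, 15194 genes tested in all). In the other design it recovered 193 (CL5 against vector at 24 h, 1 wrong, 17335 tested). The changed genes were drawn above a minimum mean count, with a fixed spread and no extraction effect. The recovery therefore does not cover members with few counts.

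The members and gene lists were chosen with earlier results of these data known. All members are named. Of each list, counts are given with the largest log2 fold changes past the threshold as examples, and of genes like a member, the 3 with the highest r for members with at least 100 counts on average. Regulators that did not pass at 24 h in CL5, 2310065F04Rik and marker genes were named beside that rule. Some genes that met the rule are counted in their lists but not reported here by name.

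Replicate numbers, which the labels lack, were taken from the study's sample table. Deviations from the group means correlated between same-numbered libraries with r from 0.514 to 0.872 in the siRNA conditions compared, where 1 number is also the TRIzol library, and from 0.00796 to 0.106 among the NucleoSpin libraries alone. In vector and CL5 at 24 h r was -0.0216. Alternatives were DESeq2 1.42.0, RLE scaling, no filter, a threshold of 0.05, no covariate, NucleoSpin libraries only, 1 fit of all 26 libraries, a replicate block and leaving out each library.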

Additional observations from a re-analysis of the deposited data

Results flagged for a closer look

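Differences of Myh3 at 24 h between conditions came out unlike in the libraries of the separate extraction methods. The log2 fold change of siSMYD3#2 relative to siCtrl was higher, and so nearer to 0, between the TRIzol libraries than between the NucleoSpin libraries, by 2.13 (SE 0.19). For the libraries labelled siSMYD3#1 the same quantity was 0.34 (SE 0.21). The log2 fold change of the libraries labelled siSMYD3#1 relative to those of siSMYD3#2 differed by -1.79 (SE 0.22, TRIzol minus NucleoSpin).

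The fit behind these values was chosen after the data were seen. With 1 TRIzol library per condition it assumes that this library varies like those of other conditions, so the values are descriptions of these libraries and no p is given. The differences of 2.13 and -1.79 rest on the same siSMYD3#2 libraries, and extraction and passage cannot be told apart.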

How the results depend on the processing

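Counts of members called are given below, 1 comparison after another. For siCtrl over time they were 4 with an adjusted p under 0.05, without a filter on low counts and with DESeq2 (each time with Myh1), 4 in the fit of all 26 libraries (with Myh6) and 2 without the extraction covariate (Myh7b lost). With an adjusted p under 0.05 they were 2 for siSMYD3#1 over time, 2 for siSMYD3#1 and 2 for siSMYD3#2 against siCtrl at 24 h, 1 between the siRNAs, and 3 (24 h) and 2 (0 h) for CL5 against vector. Without a filter on low counts they were, in the same order, 2, 3, 2, 1, 6 and 5, with 2 for siSMYD3#2 over time, 2 and 1 for the change of the siSMYD3#1 and siSMYD3#2 effects with time, 1 for vector over time and 3 for CL5 over time. DESeq2 called 2 for either siRNA at 24 h (Myh3 with Myh7b for siSMYD3#1 and with Myh7 for siSMYD3#2), 1 between the siRNAs, 1 for the siSMYD3#1 effect with time, 4 (24 h) and 2 (0 h) for CL5, and 1 each for vector and CL5 over time. Without the extraction covariate the count for siSMYD3#2 at 24 h was also lower, at 0. NucleoSpin libraries alone gave 2 for siSMYD3#1 over time, 2 for siSMYD3#2 at 24 h, 1 between the siRNAs and 1 for each siRNA effect with time. The fit of all 26 libraries gave 5 (24 h) and 3 (0 h) for CL5, and 1 each for vector and CL5 over time. DESeq2 also called more of all genes tested than edgeR in these comparisons. For siCtrl over time it called 5125 against 4655 of 15820 genes. At 24 h it called 1353 against 926 for siSMYD3#1, 1045 against 586 for siSMYD3#2 and 1007 against 532 between the siRNAs. For CL5 against vector it called 880 against 172 (24 h) and 1041 against 191 (0 h) of 17835 genes. Calls of all genes under the other settings are not given here. The cause was not tested.

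A replicate block gave 2 for CL5 against vector at 24 h (Myh7 and Myh3, where the samples share only a number) and ended no call of a member in any comparison. Leaving out 1 library at a time gave 2 to 4 for siCtrl over time, 1 to 2 for either siRNA at 24 h, 0 to 1 between the siRNAs, for the siRNA effects with time and for CL5 over time, 0 to 4 for CL5 at 24 h and 0 to 3 at 0 h. Where this leaves 1 library in a condition, it is assumed to vary like the others. The difference in Myh3 share ranged from -8.75 to -5.08 percentage points for siSMYD3#1, from -2.75 to -0.643 for siSMYD3#2 and from -10.3 to 1.24 for CL5, the last without the second CL5 library. Values that changed sign, none past the threshold, were Myh1 at 0.52 (siSMYD3#2 at 24 h without the siCtrl TRIzol library, range from -2.24), Myh1 at -0.67 (CL5 at 0 h without its second library, range to 3.78), and the change of the CL5 effect on Myh3 with time (range to 1.28) at -1.58, -0.15, -0.40 and -0.11 (without the second vector library at 0 h, the first at 24 h, and the first CL5 library at 0 h and at 24 h). Myh3 kept its call over time with siCtrl and each siRNA, and for siSMYD3#1 at 24 h, under each of 25 settings. Low counts limit Myh2, Myh4, Myh6, Myh8 and Myh13.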

Other observations

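Chains of low count were spread unevenly over the extraction methods of the siRNA libraries. Myh13, the extraocular chain, had 9, 11 and 7 counts in the TRIzol libraries of siCtrl, siSMYD3#1 and siSMYD3#2 at 24 h, and between 0 and 3 in the NucleoSpin libraries. Myh2, the IIa chain, had 0 counts in all 6 TRIzol siRNA libraries and between 0 and 10 in the 12 NucleoSpin libraries. Myh1 at 24 h had 64, 8 and 36 counts in the same TRIzol libraries against 3 to 16 in the NucleoSpin libraries. No test was run on these counts, and extraction and passage cannot be told apart.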
